A study of Mus musculus with 34 samples.

Results

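The 37 genes described here encode lysosome membrane proteins, lysosomal hydrolases and their cofactors, subunits of the proton pump of the lysosome, its transcription factors, and autophagy proteins. They were chosen by symbol from a list fixed for this work, cathepsins left out, and all 37 were measured among 19938 genes. Mitd1, a protein of the cell division machinery, stands in the list without a lysosomal role and is described separately. By role there were 6 membrane genes, 13 hydrolase or cofactor genes, 6 pump genes, 2 transcription factors, 9 autophagy genes and Mitd1.

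The study followed mouse pre-B acute lymphoblastic leukemia lines, Bin-2 (mixed genetic background) and 8093 (inbred C57BL/6J background), each from the leukemia of a mouse carrying a BCR/ABL transgene. Cells grew with IL-3 on irradiated mouse embryonic fibroblasts that stayed in place throughout. Bin-2 received 50 nM nilotinib, an inhibitor of the BCR/ABL kinase, or 0.25 µM lonafarnib, a farnesyltransferase inhibitor, and 8093 received 20 nM nilotinib or 1 µM lonafarnib. The start arrays were taken on day 0. The midpoint, when few cells were alive, was day 3, or day 4 for 8093 with lonafarnib. The end, at about 90% viability in the presence of drug, was day 21 for Bin-2 with nilotinib, day 30 for Bin-2 with lonafarnib, day 20 for 8093 with nilotinib and day 26 for 8093 with lonafarnib. Viability at the midpoint was 5 to 10%, and 20% for 8093 with lonafarnib. Each of the 12 groups had 3 arrays from separate plates, except the 8093 ends with 2 each, 34 arrays in all. Each line comes from a single leukemia, and cells that had come loose from the feeder layer were harvested with those in the medium, so any other cell types in the dish could be in the RNA. Doses differed between the lines, so a difference between lines is also a difference between doses.

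Lysosomes are acidic organelles that digest material delivered by endocytosis and autophagy. The vacuolar ATPase pumps protons into them, heavily glycosylated membrane proteins such as Lamp1 and Lamp2 line them, and soluble hydrolases reach them largely through mannose 6-phosphate receptors. Autophagy wraps cytoplasm in a double membrane that then fuses with the lysosome. Tfeb, Tfe3 and their relative Mitf are transcription factors that bind promoters of many of these genes, and the Rag GTPases tie them and the growth kinase complex mTORC1 to the lysosome surface. Macrophages and mast cells are rich in lysosomes and lysosome-related granules.

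The labelled cell type was checked against marker genes. In 11 of the 12 groups the mean log2 signal of 14 B-lineage markers lay between 8.61 and 9.61, and at the 8093 nilotinib end it was 5.68, where 12 of the 14 had fallen against the start. At that end 12 of 13 mast cell markers and 14 of 15 macrophage markers had risen, with list means of 10.88 and 8.12, against 4.03 and 4.79 at the start. Mast cell markers averaged 9.12 at the 8093 nilotinib midpoint (13 of 13 up) and 6.95 at the Bin-2 nilotinib end (11 of 13 up), against 4.45 at the Bin-2 start of that course. Macrophage markers averaged 7.81 and 8.59 at the Bin-2 nilotinib midpoint and end (14 and 15 of 15 up), against 5.43 at its start. The courses with lonafarnib moved less: 10 of 13 mast cell and 6 of 15 macrophage markers were up at the 8093 midpoint, 5 of 13 and 1 of 15 at the 8093 end, 0 of 13 and 7 of 15 at the Bin-2 midpoint, and 0 of 13 and 1 of 15 at the Bin-2 end. Fibroblast markers rose mainly at midpoints, 9 of 15 for 8093 with nilotinib, 6 of 15 for Bin-2 with lonafarnib and 4 of 15 for Bin-2 with nilotinib. Of all 19938 genes, 22.6% rose at the 8093 nilotinib midpoint and 19.6% at its end, where 24.9% fell. For Bin-2 with nilotinib 1.87% rose at the midpoint and 4.95% at the end. These shares were 3.89% and 4.4% for 8093 with lonafarnib, and 4.45% and 4.66% for Bin-2 with lonafarnib. The marker lists move with many of the results below, and their part in those results was not tested. In such bulk RNA, fewer cells of a type and less RNA per cell cannot be told apart. The spread of signals over all probesets was narrower at the 8093 nilotinib midpoint (interquartile range 3.03 log2 units) and at the Bin-2 lonafarnib midpoint (3.16) than in the other groups (3.42 to 3.55), and calls of the 37 genes lost there under another scaling are named as such. The scalings were quantile normalization and an equal median and interquartile range for all arrays. The marker lists were not refitted under them. At both of these midpoints 9 of the 15 fibroblast markers averaged above 4.68, the level under which 95% of olfactory receptor genes fell.

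**Figure D1:**
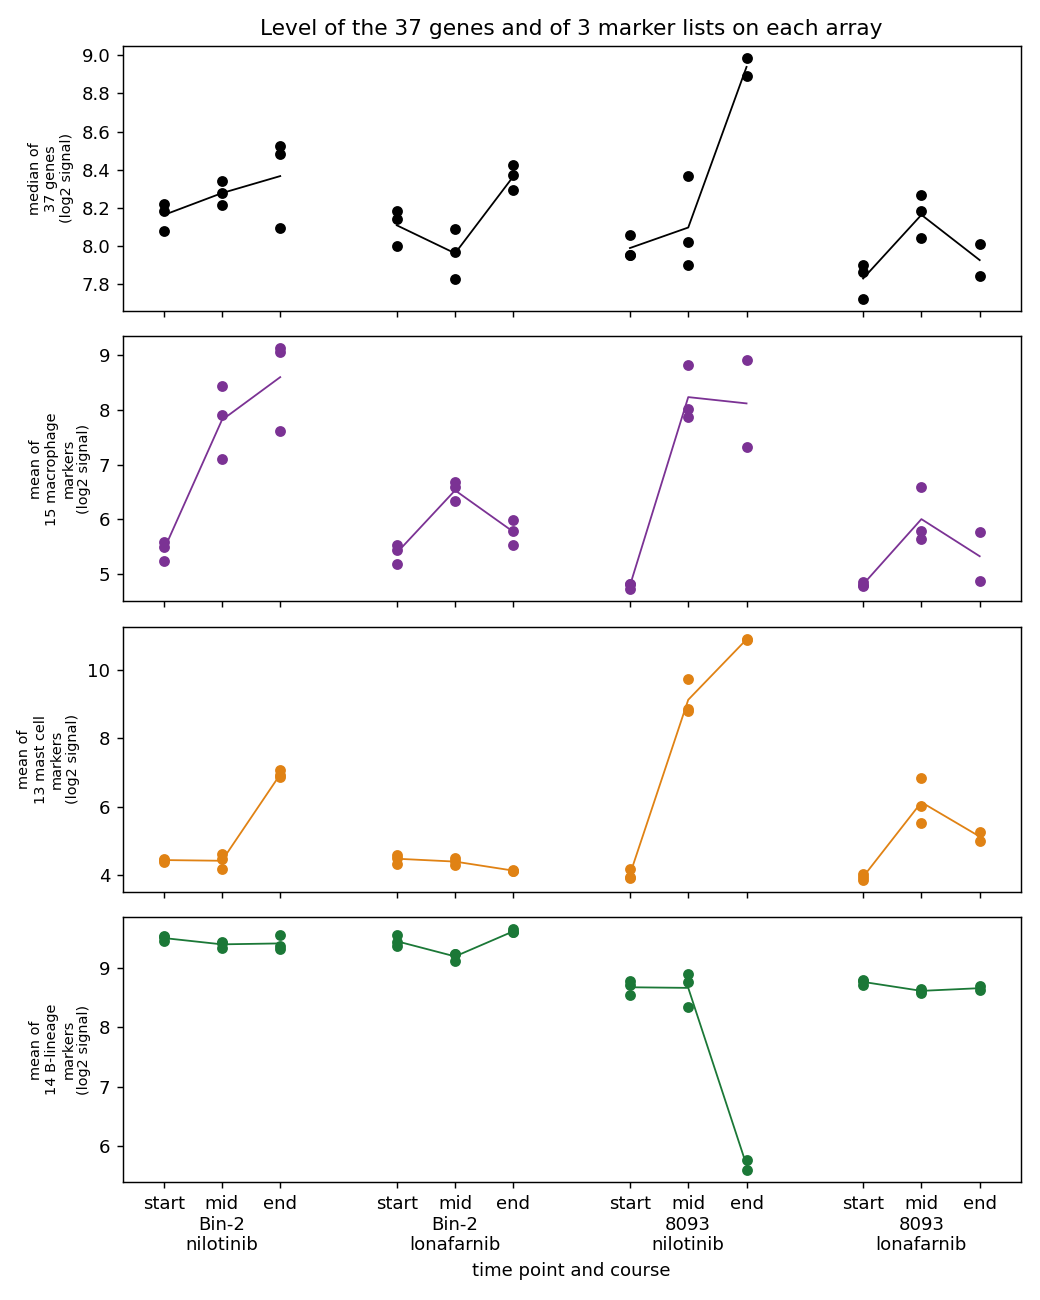
Each point is 1 array, lines join group means, and the y axis is log2 signal. The median of the 37 genes (top) is set above the mean of 15 macrophage, 13 mast cell and 14 B-lineage markers. The 8093 nilotinib end stands highest for the 37 genes and for mast cell markers and lowest for B-lineage markers.

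Promoter sequences are shown because Tfeb, Tfe3 and Mitf recognise a palindromic E-box, CACGTG, flanked by GT and AC in its best-known lysosomal form. RefSeq windows from 250 bases before to 50 bases after the transcription start (GRCm38.p6) were found for 29 of the 37 genes. Npc1, Galns, Asah1, Atp6v0d2, Atp6v1b2, Atp6v1h, Map1lc3a and Becn1 had no window. The letters GTCACGTG, on either strand, stood in the windows of 6 of these 29 genes (20.7%), against 3.46% of the 15614 measured genes with a window. The core CACGTG, which the longer motif contains, stood in 9 of the 29 (31.0%), against 9.5% of those genes, with Gaa, Atp6v1a and Atg5 added. With both flanks, GTCACGTGAC, it stood in 0 of the 29, against 0.53%. The first match in each of the 6 genes is printed 5′ to 3′ on the gene's strand, with the match in capitals.
Lamp1 (chr8:13159107-13159166, plus strand): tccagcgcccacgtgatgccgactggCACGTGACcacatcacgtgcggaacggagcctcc
Mcoln1 (chr8:3500420-3500479, plus strand): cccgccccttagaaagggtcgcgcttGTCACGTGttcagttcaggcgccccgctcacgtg
Gla (chrX:134601168-134601227, minus strand): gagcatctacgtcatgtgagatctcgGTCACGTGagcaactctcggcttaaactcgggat
Glb1 (chr9:114401002-114401061, plus strand): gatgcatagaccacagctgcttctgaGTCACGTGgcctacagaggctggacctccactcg
Atp6v0d1 (chr8:105566036-105566095, minus strand): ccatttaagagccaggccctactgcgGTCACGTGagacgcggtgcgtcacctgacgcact
Atg7 (chr6:114670936-114670995, plus strand): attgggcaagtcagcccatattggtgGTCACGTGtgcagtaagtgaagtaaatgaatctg
The match began 28 bases before the transcription start in Lamp1, 73 in Mcoln1, 196 in Gla, 50 in Glb1, 5 in Atp6v0d1 and 134 in Atg7. The Atg7 window belongs to a start 27969 bases inside the gene, which spans chr6:114643127-114860604, and the other 5 starts are those of the annotated gene. Mcoln1 held a second match, 45 bases before its start. At the 8093 nilotinib end, where 19.6% of all genes rose, all 6 of these genes were called up. Their changes were 0.45 to 1.89 log2 units (median 1.57). Of the 23 genes whose window lacks the motif 15 were called up there (median 1.28, range -0.11 to 6.29). At the midpoint of that course 3 of the 6 were up (median 0.22) and 13 of the 23 (median 0.55), against 22.6% of all genes. At the Bin-2 lonafarnib end 1 of the 6, Mcoln1, was called up, and 8 of the 23, against 4.66% of all genes. These are descriptions of letters in a window and show neither binding nor a cause.

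Before drug, the lines differed in 13 of the 37 genes, 7 higher and 6 lower in Bin-2, where 9.47% of all genes were higher and 10.6% lower. Values here are log2 signals, a call is an adjusted p below 0.05 from limma over all 19938 genes, and each error is the SE of the fit. Grn, which encodes the lysosomal glycoprotein progranulin, was 8.80 to 9.18 on the 6 Bin-2 start arrays (median 8.90) and 7.78 to 8.64 on the 6 of 8093 (median 8.14). The groups did not overlap, and the difference was 0.74 ± 0.17 (SE), adjusted p = 0.00118. Lamp1, a major glycoprotein of the lysosome membrane, lay at 9.60 to 9.74 in Bin-2 (median 9.66) and at 8.83 to 9.03 in 8093 (median 8.96). It too separated the lines, by 0.72 ± 0.09 (SE), adjusted p = 1.12e-07. Tpp1, a peptidase that trims tripeptides, was higher in Bin-2 by 0.51, Lamp2 by 0.39, and the calcium channel gene Mcoln1, Ulk1 and the pump accessory gene Atp6ap1 by 0.31, 0.30 and 0.30. Lower in Bin-2 were Hexa, the alpha subunit of beta-hexosaminidase, with a difference of -0.60, and the membrane cholesterol exporter Npc1 with -0.55. Smaller differences of the same sign were those of Glb1 (-0.33), Npc2 (-0.33), Mitd1 (-0.29) and Gusb (-0.28). Psap, whose product is cut into the saposins that present lipids to hydrolases, had the highest signal of the 37 in both lines (medians 12.1 each).

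By count, most rises came in 8093 with nilotinib, where all genes also moved most, and next at the ends in Bin-2 with either drug. At the 8093 nilotinib midpoint 54.1% of the 37 genes were up, against 22.6% of all genes. At the Bin-2 nilotinib midpoint 21.6% were up, against 1.87%. In each sentence the shares in parentheses are those of all 19938 genes called up and called down. For Bin-2 with nilotinib, 8 genes were up and 0 down at the midpoint (1.87% and 1.6% of all genes), and 14 up and 0 down at the end (4.95% and 3.94%). For Bin-2 with lonafarnib, 2 were up and 3 down at the midpoint (4.45% and 12%), and 11 up and 0 down at the end (4.66% and 3.41%). For 8093 with nilotinib, 20 were up and 6 down at the midpoint (22.6% and 27.5%), and 26 up and 1 down at the end (19.6% and 24.9%). That midpoint count was 27 up and 2 down after quantile normalization (19.9% and 23.2%) and 25 up and 4 down with equal interquartile ranges (16.6% and 42.2%). For 8093 with lonafarnib, 7 were up and 1 down at the midpoint (3.89% and 6.9%), and 5 up and 3 down at the end (4.4% and 4.31%). The median change of the 37 was 0.98 log2 units at the 8093 nilotinib end, where the median of all genes was -0.15, and 0.37 at its midpoint, where it was 0.03. It was 0.37 at the Bin-2 nilotinib end and 0.28 at the Bin-2 lonafarnib end, with medians of all genes of -0.03 and 0.02. It was close to that of all genes for 8093 with lonafarnib, at 0.07 and 0.04 against 0.01 and -0.03. Scarb2, the receptor that carries glucocerebrosidase to lysosomes, and the sialidase Neu1 were called in none of the 8.

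The counts for the courses with fewer calls depended on single arrays. With 8093 and lonafarnib, the 8 calls at the end dropped to 0 without end replicate 2, to 3 without start replicate 3, and to 4 without each other array of that comparison. The 8 calls at the midpoint dropped to 3 without start replicate 3 or midpoint replicate 1, and to 5 without start replicate 1, start replicate 2 or midpoint replicate 3. With Bin-2 and nilotinib, the 8 midpoint calls became 4 without midpoint replicate 1 and 5 without start replicate 1, start replicate 2 or midpoint replicate 3, and the 14 end calls became 9 without end replicate 2. With Bin-2 and lonafarnib, the 11 end calls became 6 without start replicate 2 or end replicate 3, and 7 without start replicate 3 or end replicate 2.

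**Figure D2:**
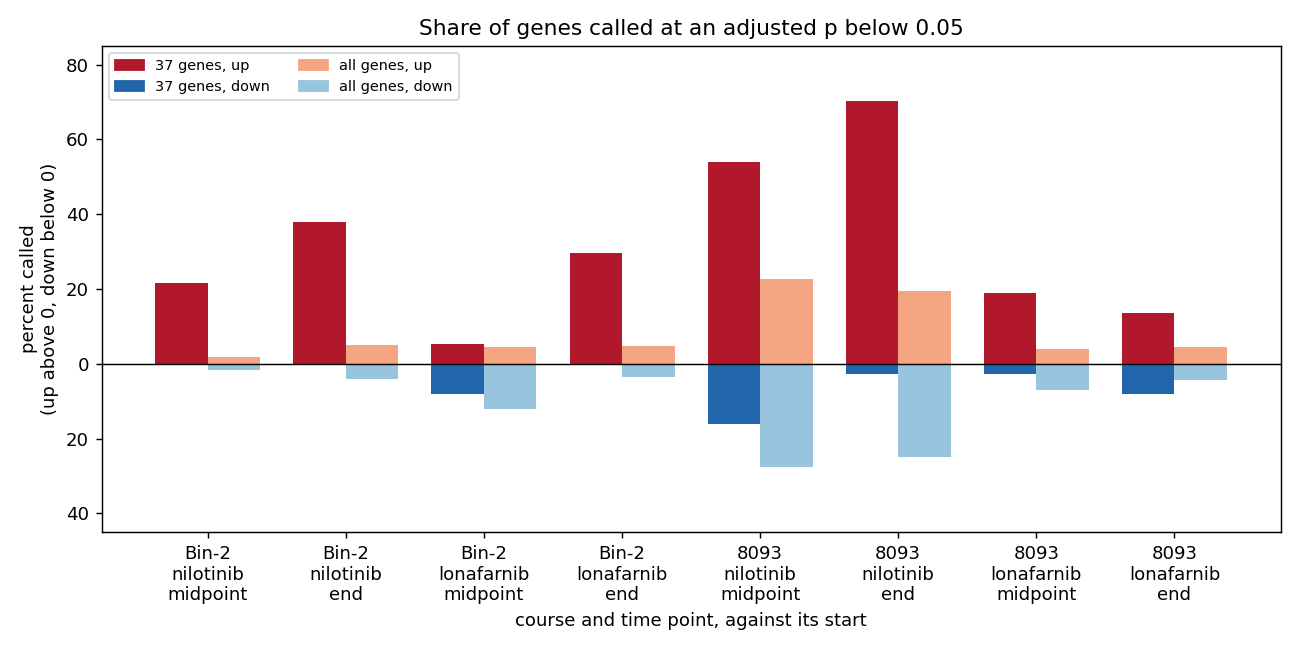
Bars show the percent of the 37 genes (dark) and of all 19938 genes (light) called up (above 0) or down (below 0) at an adjusted p below 0.05, for the midpoint and end of each course against its start. The largest share is that of the 8093 nilotinib end, 26 of 37 genes up, where 19.6% of all genes were up.

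**Figure D3:**
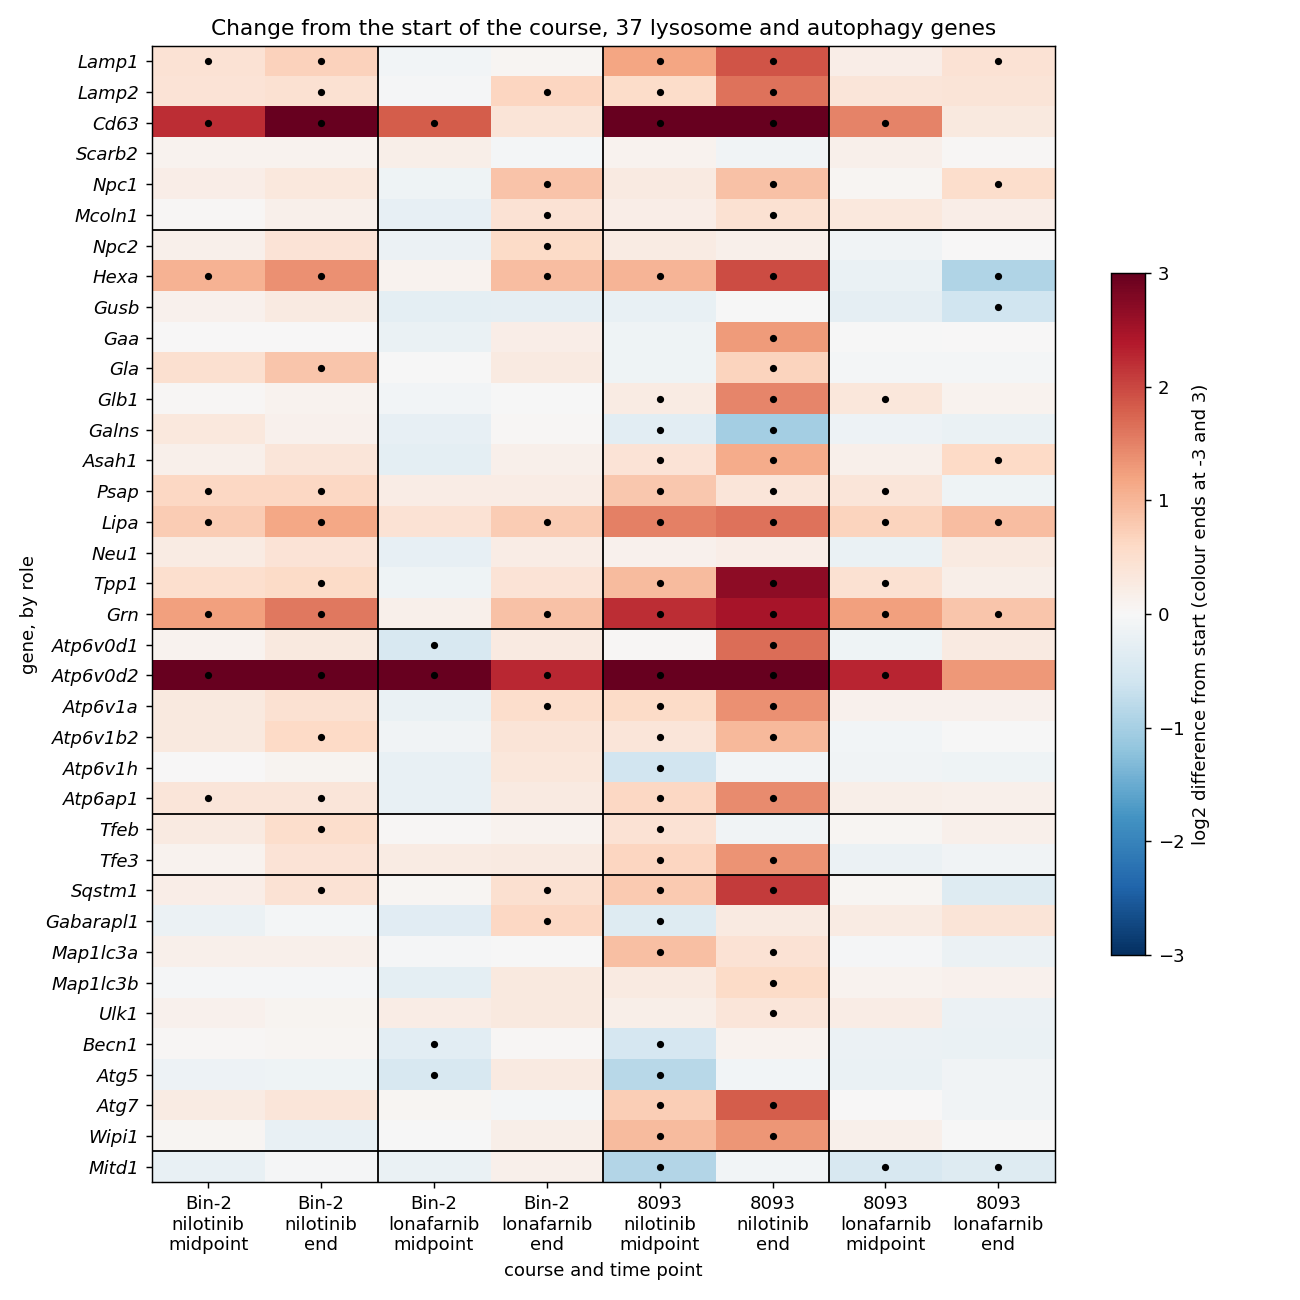
Colour gives the log2 difference from the start for the 37 genes (rows, grouped by role) in 8 comparisons (columns), with the colour scale ending at -3 and 3, and a dot marks an adjusted p below 0.05. Grn, Lipa and Hexa and the pump gene Atp6v0d2 are red in most columns, and most other dots lie in the columns of 8093 with nilotinib.

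Among the membrane genes, Cd63 changed most. Cd63 encodes a tetraspanin of late endosomes, lysosomes and secretory granules. In 8093 with nilotinib its log2 signal was 3.81, 3.93 and 4.54 at the start, 8.37, 9.36 and 8.08 at the midpoint and 10.15 and 10.61 at the end. In Bin-2 with nilotinib it was 3.33, 3.48 and 3.17 at the start, 6.34, 4.68 and 5.62 at the midpoint and 7.65, 8.06 and 6.24 at the end. All start arrays of these courses lay below all later arrays, and below 4.68, the level under which 95% of olfactory receptor genes fell. Differences measured from so low a level may understate the fold. The rise at the end was 3.99 ± 0.43 (SE), adjusted p = 1e-07 in Bin-2 and 6.29 ± 0.48 (SE), adjusted p = 3.14e-12 in 8093, and at the midpoint 2.22 and 4.51. With lonafarnib Cd63 was up at the midpoint, by 1.82 in Bin-2 and 1.49 in 8093, and at both lonafarnib ends its mean lay, as at the starts, below the 4.68 level.

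Lamp1 and Lamp2, the main glycoproteins of the lysosome membrane, both rose at the nilotinib ends. With lonafarnib a different one of them was called at the end in each line, and no test compared Lamp1 with Lamp2. With nilotinib in 8093, Lamp1 was 8.92, 8.84 and 8.83 at the start, 9.87, 10.34 and 9.94 at the midpoint and 10.71 and 10.79 at the end, with no overlap. It rose by 1.19 at the midpoint and by 1.89 ± 0.14 (SE), adjusted p = 8.19e-13 at the end. With nilotinib in Bin-2 the rise of Lamp1 was 0.43 at the midpoint and 0.68 at the end of the course. In Bin-2 with lonafarnib it was 9.77, 9.71 and 9.66 at the end and 9.74, 9.60 and 9.65 at the start, which overlap, and the difference was 0.06 (adjusted p = 0.876). Lamp2 in those cells was 9.86, 9.62 and 9.63 at the end and 8.85, 9.05 and 9.27 at the start, without overlap, a rise of 0.65 ± 0.14 (SE), adjusted p = 0.00218. With nilotinib Lamp2 was up at the end by 0.45 in Bin-2 and 1.64 in 8093. In 8093 with lonafarnib Lamp1 was called up at the end, with 9.47 and 9.41 against 9.03, 9.01 and 9.01 at the start. Lamp2 was not called there, with 9.20 and 8.91 against 8.72, 8.77 and 8.53.

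Npc1, which moves cholesterol out of the lysosome, rose at the ends of 3 courses. In Bin-2 with lonafarnib it was 9.32, 9.12 and 9.39 at the end and 8.32, 8.49 and 8.43 at the start. It was also up in 8093 with lonafarnib, 9.46 and 9.47 at the end and 8.90, 9.07 and 8.86 at the start. Neither pair overlapped, and the rises were 0.86 ± 0.13 (SE), adjusted p = 3.07e-05 and 0.52 ± 0.15 (SE), adjusted p = 0.0246. In 8093 with nilotinib its rise was 0.87, and in Bin-2 with nilotinib the change was 0.32 (adjusted p = 0.152). Mcoln1, the calcium channel of the lysosome membrane, rose at the Bin-2 lonafarnib end by 0.43 and at the 8093 nilotinib end by 0.45, and Scarb2 moved by no more than 0.18 in any of the 8 comparisons.

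Among the 13 hydrolase and cofactor genes, 9 were up and 1 down at the 8093 nilotinib end, 6 up at the Bin-2 nilotinib end, 4 up at the Bin-2 lonafarnib end, and 3 up and 2 down at the 8093 lonafarnib end. The shares of all genes called up at these ends were 19.6%, 4.95%, 4.66% and 4.4%, and those called down at the 8093 ends were 24.9% with nilotinib and 4.31% with lonafarnib. Grn and Lipa, the acid lipase that frees cholesterol from its esters, were the members called up at the end of all 4 courses, as were 29 of all 19938 genes (0.145%). The calls of both genes at the 8093 lonafarnib end depended on single arrays, as given above. In Bin-2 with nilotinib, Grn was 8.83, 8.85 and 9.14 at the start, 10.62, 9.78 and 10.13 at the midpoint and 10.47, 10.97 and 10.13 at the end. With lonafarnib in Bin-2 it was 8.80, 9.18 and 8.96 at the start, 9.15, 9.04 and 9.22 at the midpoint and 9.82, 9.84 and 9.88 at the end, so the end arrays alone lay clear of the others. In 8093 with nilotinib the arrays were 8.12, 8.55 and 8.64 at the start, 10.40, 11.34 and 10.21 at the midpoint and 11.14 and 10.70 at the end. The changes at the end were 1.59 ± 0.23 (SE), adjusted p = 1.49e-05 for Bin-2 with nilotinib and 0.87 ± 0.23 (SE), adjusted p = 0.0164 for Bin-2 with lonafarnib. They were 2.48 ± 0.26 (SE), adjusted p = 2.91e-09 for 8093 with nilotinib and 0.84 ± 0.26 (SE), adjusted p = 0.0426 for 8093 with lonafarnib, where the midpoint had been higher at 1.24. Lipa had end changes of 1.16 for Bin-2 with nilotinib, 0.76 for Bin-2 with lonafarnib, 1.62 for 8093 with nilotinib and 0.93 for 8093 with lonafarnib.

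Hexa went opposite ways in the lines under lonafarnib. Together with its beta subunit partner, its product degrades the ganglioside that builds up in Tay-Sachs disease. Hexa in Bin-2 with lonafarnib was 8.07, 8.37 and 8.29 at the end and 7.49, 7.21 and 7.22 at the start, all end arrays higher. In 8093 with lonafarnib it was 6.83 and 7.05 at the end and 7.85, 7.90 and 7.80 at the start, all end arrays lower. The changes were 0.94 ± 0.21 (SE), adjusted p = 0.0039 and -0.91 ± 0.24 (SE), adjusted p = 0.0141. With nilotinib it rose in both lines, by 1.38 at the Bin-2 end and 1.95 at the 8093 end. Gusb, beta-glucuronidase, also fell at the 8093 lonafarnib end, with -0.60 ± 0.15 (SE), adjusted p = 0.00822, and was called in no other comparison with a start.

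Tpp1, Glb1 and Gaa had their largest rise at the 8093 nilotinib end. Tpp1 was 7.72, 7.55 and 7.68 at the start, 8.50, 9.00 and 8.28 at the midpoint and 10.67 and 9.99 at the end of that course, each later group clear of the earlier one, and the end change was 2.68 ± 0.17 (SE), adjusted p = 3.4e-14. Glb1, the beta-galactosidase of lysosomes, was 7.67, 7.50 and 7.53 at the start, 7.95, 7.73 and 7.74 at the midpoint and 8.97 and 9.07 at the end. Its rise was 0.24 at the midpoint and 1.45 at the end. Gaa, the acid alpha-glucosidase that digests glycogen, was 7.41, 7.15 and 7.38 at the start, 7.18, 7.38 and 7.02 at the midpoint and 8.67 and 8.50 at the end. Its change was -0.12 (adjusted p = 0.429) at the midpoint and 1.28 ± 0.13 (SE), adjusted p = 1.97e-09 at the end. In Bin-2 with nilotinib, Tpp1 rose by 0.57 at the end, and Glb1 and Gaa changed by 0.12 (adjusted p = 0.569) and 0.00 (adjusted p = 0.997). Asah1, acid ceramidase, rose by 1.11 in 8093 with nilotinib and by 0.59 with lonafarnib, and Gla, the alpha-galactosidase, rose with nilotinib by 0.83 at the Bin-2 end and 0.66 at the 8093 end.

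Galns, a sulfatase that acts on keratan sulfate, was the member that fell at the 8093 nilotinib end, to 6.69 and 6.27, against 7.60, 7.43 and 7.49 at the start. The arrays did not overlap, and the change was -1.03 ± 0.13 (SE), adjusted p = 1.41e-07. At the midpoint it was -0.32, a call lost under both scalings, with 0.03 after quantile normalization. Psap, at high signal throughout, rose at 3 midpoints, by 0.63 for Bin-2 with nilotinib, 0.80 for 8093 with nilotinib and 0.37 for 8093 with lonafarnib. It was higher at the end by 0.61 in Bin-2 with nilotinib and 0.37 in 8093 with nilotinib. Npc2, the soluble partner of Npc1, was up at the Bin-2 lonafarnib end by 0.57 ± 0.14 (SE), adjusted p = 0.00956, with 8.94, 9.09 and 9.15 at the end and 8.66, 8.27 and 8.54 at the start, and was called nowhere else among the 8 comparisons.

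**Figure D4:**
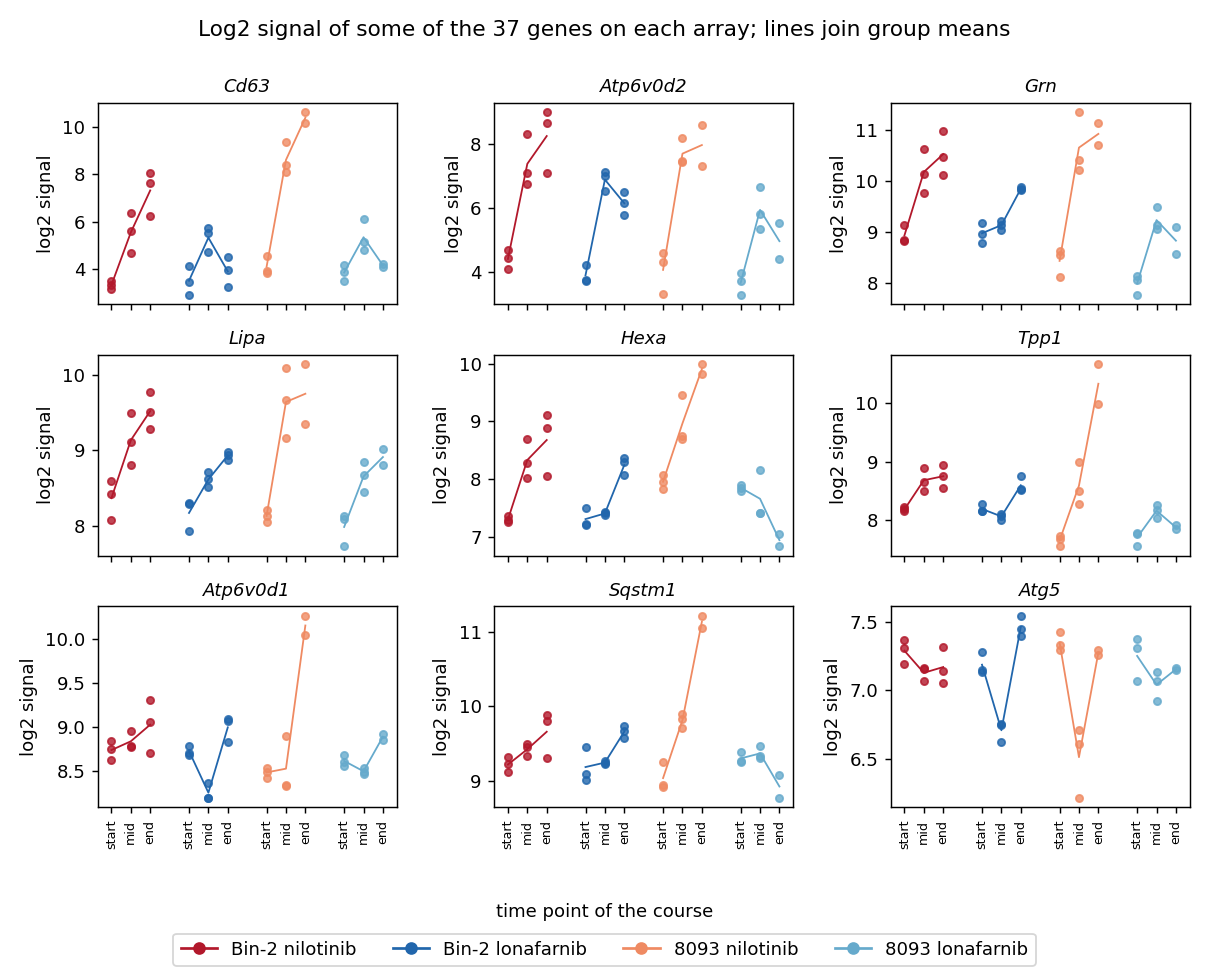
Points are log2 signals of single arrays and lines join group means, for 9 of the 37 genes at the start, midpoint (mid) and end of the 4 courses. Cd63, Atp6v0d2, Grn, Lipa and Hexa lie higher in both nilotinib courses after the start, Tpp1, Atp6v0d1 and Sqstm1 stand out at the 8093 nilotinib end, and Atg5 dips at 2 midpoints.

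Of the 6 proton pump genes, Atp6v0d2 changed in nearly every comparison. It encodes a form of the d subunit known from osteoclasts and macrophages. In Bin-2 with nilotinib it was 4.70, 4.43 and 4.10 at the start, 8.33, 6.74 and 7.09 at the midpoint and 9.00, 8.66 and 7.11 at the end. With lonafarnib in Bin-2 it was 3.76, 4.21 and 3.73 at the start, 7.14, 6.53 and 7.02 at the midpoint and 5.78, 6.52 and 6.16 at the end. With nilotinib in 8093 it was 3.30, 4.58 and 4.31 at the start, 7.47, 8.21 and 7.44 at the midpoint and 8.62 and 7.33 at the end. In each course the start arrays lay below all others and its start mean was under the 4.68 level. The end changes were 3.85 ± 0.44 (SE), adjusted p = 2.44e-07 for Bin-2 with nilotinib and 2.26 ± 0.44 (SE), adjusted p = 0.000673 for Bin-2 with lonafarnib. They were 3.91 ± 0.49 (SE), adjusted p = 7.68e-08 for 8093 with nilotinib and 1.31 (adjusted p = 0.101) for 8093 with lonafarnib. Cd63 and Atp6v0d2 were the members called up at all 4 midpoints, as were 42 of all genes (0.211%).

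The widely expressed d subunit gene, Atp6v0d1, had a different course. In 8093 with nilotinib it was 8.53, 8.42 and 8.49 at the start, 8.33, 8.90 and 8.34 at the midpoint and 10.27 and 10.04 at the end. The midpoint overlapped the start, the end did not, and the end change was 1.67 ± 0.15 (SE), adjusted p = 6.81e-11. In Bin-2 it was not called at either end, with 0.29 (adjusted p = 0.2) for nilotinib and 0.27 (adjusted p = 0.263) for lonafarnib. It fell by 0.47 at the Bin-2 lonafarnib midpoint, a call lost under both scalings. Atp6v1a and Atp6v1b2, which form the catalytic head of the pump, rose at the 8093 nilotinib end by 1.37 and 0.98. In Bin-2, Atp6v1a rose at the lonafarnib end by 0.52 and Atp6v1b2 at the nilotinib end by 0.59. The accessory subunit gene Atp6ap1 rose in both nilotinib courses, to 11.21 and 11.29 at the 8093 end, against 9.88, 9.77 and 9.85 at its start, a change of 1.42 ± 0.12 (SE), adjusted p = 2.51e-11, and by 0.37 at the Bin-2 end. Atp6v1h fell at the 8093 nilotinib midpoint, with a change of -0.58 ± 0.12 (SE), adjusted p = 0.000161, and this fall was not called after quantile normalization.

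Tfeb and Tfe3 changed modestly next to their relative Mitf, which was not on the list of 37. Tfeb had low signals, 5.34, 5.35 and 5.31 at the start, 5.66, 5.65 and 6.00 at the midpoint and 5.31 and 5.14 at the end of the 8093 nilotinib course, and was called at the midpoint (0.44, a call lost under both scalings) but not at the end (-0.11, adjusted p = 0.515). In Bin-2 it rose at the nilotinib end, 5.76, 5.85 and 5.56 against 5.43, 5.00 and 5.12 at the start, by 0.54 ± 0.11 (SE), adjusted p = 0.00141. Tfe3 rose in 8093 with nilotinib, with 6.49, 6.50 and 6.44 at the start, 7.05, 7.16 and 7.15 at the midpoint and 8.14 and 7.51 at the end, and its end change was 1.35 ± 0.21 (SE), adjusted p = 2.29e-06. Neither gene was called in a course with lonafarnib. Mitf, needed for mast cell development, was 4.86, 4.31 and 4.42 at the start, 6.42, 6.79 and 6.12 at the midpoint and 9.68 and 9.43 at the end of the 8093 nilotinib course. No arrays overlapped, and it rose by 1.91 at the midpoint and 5.03 ± 0.28 (SE), adjusted p = 2.57e-15 at the end. It also rose at the Bin-2 nilotinib end by 1.44. The start means of Mitf were below the 4.68 level, so these differences may understate the fold. Its mean in 8093 with lonafarnib was below that level throughout, and at the Bin-2 lonafarnib end the change was 0.70 (adjusted p = 0.0927).

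The autophagy genes changed in different directions and at different times. Sqstm1 encodes p62, a receptor that carries cargo into autophagosomes and is itself degraded there. With nilotinib in 8093 it was 9.25, 8.91 and 8.94 at the start, 9.83, 9.90 and 9.71 at the midpoint and 11.05 and 11.22 at the end, rising against the start by 0.78 at the midpoint and 2.10 ± 0.15 (SE), adjusted p = 3.61e-13 at the end. It was higher at both Bin-2 ends, by 0.44 with nilotinib, where arrays overlapped, and by 0.48 with lonafarnib, where they did not. In 8093 with lonafarnib the end change was -0.38 (adjusted p = 0.114). Atg7, the E1-like enzyme of the conjugation of LC3, was 7.34, 7.31 and 7.34 at the start, 7.97, 8.40 and 7.79 at the midpoint and 8.91 and 9.39 at the end of the 8093 nilotinib course. It rose by 1.82 ± 0.15 (SE), adjusted p = 2.76e-11 at that end and was called in no other course. Wipi1, a phosphoinositide-binding protein of early autophagosomes, rose there by 0.95 at the midpoint and 1.32 at the end, from a start mean near the 4.68 level. The LC3 genes Map1lc3a and Map1lc3b rose at that end by 0.44 and 0.58, the kinase gene Ulk1 by 0.37, and none of these 3 was called in another course. The second Map1lc3b probeset averaged 8.28 at that end, against 7.63 at the start.

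Atg5 and Becn1 fell at the midpoints with the narrowest signals and were back at the ends. Atg5 couples to Atg12 to form the ligase of LC3, and Becn1 is part of the lipid kinase complex that starts the autophagosome. In 8093 with nilotinib, Atg5 was 7.29, 7.33 and 7.42 at the start, 6.61, 6.71 and 6.21 at the midpoint and 7.26 and 7.29 at the end. Atg5 in Bin-2 with lonafarnib was 7.13, 7.15 and 7.28 at the start, 6.75, 6.76 and 6.62 at the midpoint and 7.54, 7.40 and 7.44 at the end. The midpoint arrays lay below all others in both courses, and the midpoint changes were -0.84 ± 0.11 (SE), adjusted p = 2.02e-07 and -0.48 ± 0.11 (SE), adjusted p = 0.00334. The call in Bin-2 depended on scaling. The fall in 8093 was called after quantile normalization and after setting arrays to an equal interquartile range, whereas the fall in Bin-2 was not called after quantile normalization. Becn1 fell by 0.50 at the 8093 nilotinib midpoint, a call lost after quantile normalization. It fell by 0.31 at the Bin-2 lonafarnib midpoint, a call lost under both scalings. Gabarapl1, an LC3 relative, was -0.39 at the 8093 nilotinib midpoint, where arrays overlapped and the call was lost under either scaling. At the Bin-2 lonafarnib end it was 8.79, 9.00 and 8.83, against 8.34, 8.18 and 8.25 at the start, a rise of 0.62 ± 0.16 (SE), adjusted p = 0.0134. Mitd1 fell at the 8093 nilotinib midpoint, with a change of -0.87 ± 0.11 (SE), adjusted p = 6.9e-08, called under both scalings, and its changes in 8093 with lonafarnib were -0.49 at the midpoint and -0.38 at the end, both called.

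Between midpoint and end, the largest number of calls came in 8093 with nilotinib, 22 higher and 4 lower at the end (26.7% and 27.8% of all genes), and in Bin-2 with lonafarnib, 21 higher and 1 lower (19.8% and 9.97%). Both counts depended on scaling. In 8093 the split was 11 higher and 6 lower after quantile normalization (3662 and 3987 of all 19938 genes). With equal interquartile ranges it was 8 higher and 9 lower (5565 and 3931 of all genes). In Bin-2 it was 12 and 3 (2297 and 2161 of all genes), and 10 and 3 (3702 and 2353). Cd63, Tpp1 and Atp6v0d1 showed the largest rises in 8093, 1.78, 1.74 and 1.63. In Bin-2 with lonafarnib, Npc1 rose by 0.99 and Gabarapl1 by 0.95, and Cd63 fell by 1.42. Bin-2 with nilotinib had 1 gene higher, Cd63 by 1.77, and 0 lower (0.998% and 0.416% of all genes). 8093 with lonafarnib had 0 higher and 1 lower, Psap at -0.50 (3.95% and 2.31%). The call for Cd63 in Bin-2 was lost without midpoint replicate 2 or 3 or end replicate 1 or 2, and 4 genes were called without end replicate 3. The call for Psap was lost without either end array.

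The change under nilotinib was compared with the change under lonafarnib within each line, by a test of the difference between the changes. In 8093 it differed for 15 genes at the midpoint, 12 more positive and 3 more negative with nilotinib (9.19% and 17.6% of all genes), and for 21 at the end, 20 and 1 (15.7% and 17.4%). Cd63 and Hexa led both, with differences of 3.02 and 1.20 at the midpoint, adjusted p = 0.000463 and 0.00361. At the end they were 5.99 and 2.86, adjusted p = 2.72e-08 and 5.57e-08, with Atp6v0d2 (2.60), Tpp1 (2.51) and Sqstm1 (2.47). The lonafarnib means of Cd63 that enter the end differences of both lines lay below the 4.68 level. Galns was the gene more negative with nilotinib at the end, with -0.84. The 15 calls at the midpoint became 9 without nilotinib midpoint replicate 2, lonafarnib start replicate 3 or lonafarnib midpoint replicate 1. In Bin-2, Atp6ap1 alone differed at the midpoint, by 0.59 ± 0.15 (SE), adjusted p = 0.0428, where 1.04% of all genes were more positive and 0.441% more negative. That call was lost after both scalings and in 11 of the 12 fits that left out an array, all but that without nilotinib midpoint replicate 2. With the start arrays of both courses pooled, 19 genes were called, where 2511 of all 19938 genes were more positive and 874 more negative. With separate starts 16 of the 37 had an unadjusted p below 0.05, all more positive with nilotinib. All genes were not counted at that unadjusted level, and those called also leaned positive (1.04% and 0.441%). At the Bin-2 end 2 genes differed, Cd63 by 3.59 ± 0.61 (SE), adjusted p = 0.000178 and Lamp1 by 0.62 ± 0.17 (SE), adjusted p = 0.0183 (4.65% of all genes more positive, 4.86% more negative). The number at that end was 6 without nilotinib end replicate 3, and 1 without nilotinib end replicate 1, nilotinib end replicate 2 or lonafarnib start replicate 1.

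The change in Bin-2 was also set against that in 8093 under each drug. With nilotinib at the midpoint, 5 genes were more positive and 6 more negative in Bin-2 (18% and 8.01% of all genes), led by Cd63 (-2.29 ± 0.61 (SE), adjusted p = 0.0054) and Grn (-0.97 ± 0.33 (SE), adjusted p = 0.0293). After setting equal interquartile ranges the split was 3 and 20, where 4328 of all 19938 genes were more positive and 1960 more negative. At the end 2 were more positive, Galns (1.16) and Tfeb (0.65), and 16 more negative (15.6% and 15% of all genes), led by Cd63 (-2.30 ± 0.65 (SE), adjusted p = 0.00626) and Tpp1 (-2.11 ± 0.23 (SE), adjusted p = 9.1e-09). Others whose change was more negative in Bin-2 were Sqstm1 (-1.66), Wipi1 (-1.54), Atg7 (-1.45) and Atp6v0d1 (-1.39). With lonafarnib, limma called 0 genes at the midpoint (0.843% and 3.36% of all genes), and 2 without Bin-2 lonafarnib midpoint replicate 2. At an unadjusted p below 0.05 there were 7, all more negative in Bin-2, a level at which all genes were not counted. At the end 2 were more positive in Bin-2 and 0 more negative (2.12% and 2.49%). These were Hexa, by 1.85 ± 0.32 (SE), adjusted p = 0.000386, and Sqstm1, by 0.85 ± 0.20 (SE), adjusted p = 0.00717. A single gene was left without 8093 lonafarnib end replicate 2.

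Across the 12 groups, 21 of the 37 genes had their highest mean at the 8093 nilotinib end (56.8%, against 18.8% of all genes), 6 at the Bin-2 lonafarnib end (16.2%, against 9.6%), and 12 had their lowest mean at the Bin-2 lonafarnib midpoint (32.4%, against 6.7%). Of the 11 genes up at the Bin-2 lonafarnib end, 9 were among the 26 up at the 8093 nilotinib end (81.8% and 34.6% of the lists, against 41.3% and 9.9% for the lists of all genes), and Npc2 and Gabarapl1 were not. Of the 14 up at the Bin-2 nilotinib end, 13 were among those 26 (92.9% and 50.0%, against 79.8% and 20.2%), Tfeb being the other. Those 26 were themselves 70.3% of the 37. Bin-2 with nilotinib and Bin-2 with lonafarnib shared 6 genes at the end (42.9% and 54.5%, against 12% and 12.7%), Lamp2, Hexa, Lipa, Grn, Atp6v0d2 and Sqstm1. Of the 37, 37.8% were up at the Bin-2 nilotinib end and 29.7% at the Bin-2 lonafarnib end.

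Replicates within some groups differed in the 37 genes and in the marker lists. At the Bin-2 nilotinib end, replicate 3 held the lowest value of 31 of the 37 genes, and its macrophage marker mean was 7.61, against 9.06 and 9.12 in replicates 1 and 2. Its mast cell marker mean was 6.91, against 6.86 and 7.06. Without it 20 genes were called at that end. At the 8093 nilotinib midpoint, replicate 2 was highest for 29 of the 37 genes. Its macrophage marker mean was 8.8, against 8.0 and 7.9, and its mast cell marker mean 9.7, against 8.8 and 8.8. Replicate 1 was highest for 29 genes at the 8093 lonafarnib midpoint, with means of 6.6 (others 5.6 and 5.8) and 6.8 (5.5 and 6.0). Replicate 1 was highest for 28 at the Bin-2 nilotinib midpoint, with means of 8.4 (7.1 and 7.9) and 4.2 (4.5 and 4.6). At the 8093 nilotinib end the macrophage marker mean was 8.91 in replicate 1 and 7.32 in replicate 2, and the mast cell marker mean 10.90 and 10.87. Of the 37 genes, 20 were higher there in replicate 1 and 17 in replicate 2. Atp6v0d2, Asah1, Lipa and Psap were among those higher in replicate 1, at 8.62, 10.13, 10.15 and 12.75, and lower in replicate 2, at 7.33, 9.27, 9.35 and 12.15. Cd63, Sqstm1 and Glb1 were not, at 10.15, 11.05 and 8.97 in replicate 1 and 10.61, 11.22 and 9.07 in replicate 2. At the Bin-2 lonafarnib end, where 11 of the 37 genes were up, 1 of 15 macrophage markers was up and 3 of 13 mast cell markers were down (4.66% of all genes up and 3.41% down).

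Further genes of the same pathways, listed by function, had the most calls at the 8093 nilotinib end, where 19.6% of all genes rose and 24.9% fell. Of 24 other lysosomal hydrolases, 21 rose and 2 fell there (median 1.09), with Ids, an iduronate sulfatase, up by 3.76 and Creg1, a lysosomal glycoprotein, up by 3.40. Arsb, arylsulfatase B, fell to 6.15 and 4.92, against 7.67, 7.59 and 7.51 at the start, a change of -2.05 ± 0.21 (SE), adjusted p = 1.23e-09. At the Bin-2 nilotinib end 9 of the 24 rose (4.95% of all genes), with Smpd1, acid sphingomyelinase, up by 0.89, and at both lonafarnib ends 2 rose (4.66% of all genes in Bin-2 and 4.4% in 8093), with 3 falling in 8093 (4.31%). Of 18 other membrane genes, 9 rose and 4 fell at the 8093 nilotinib end, among them the cystine exporter Ctns (1.76) and the channel Mcoln2 (-2.39). At the Bin-2 lonafarnib end 5 rose and 1 fell (4.66% and 3.41% of all genes), among them the channel Mcoln3 (0.68) from a start mean below the 4.68 level, and Laptm4b (-0.75).

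Of 17 other pump subunits, 7 rose and 0 fell at the 8093 nilotinib end, led by Atp6v0a1, whose rise was 3.36 there and 1.80 at the Bin-2 nilotinib end. At the midpoints with narrow arrays more fell than rose, 7 and 3 for 8093 with nilotinib (27.5% and 22.6% of all genes) and 8 and 0 for Bin-2 with lonafarnib (12% and 4.45%). After quantile normalization 0 fell and 3 rose in 8093 (23.2% and 19.9% of all genes), and 1 fell and 1 rose in Bin-2 (5.05% and 4.43%). With equal interquartile ranges the counts were 3 and 3 (42.2% and 16.6%), and 2 and 1 (9.69% and 6.96%). Of 33 other autophagy genes, 17 fell and 5 rose at the 8093 nilotinib midpoint, the falls led by Atg101, a partner of Ulk1, at -1.16, called under both scalings. After quantile normalization 9 fell and 10 rose (23.2% and 19.9% of all genes). With equal interquartile ranges 13 fell and 8 rose (42.2% and 16.6% of all genes). At the Bin-2 lonafarnib midpoint 10 fell and 0 rose. Under these scalings 1 fell and 2 rose (5.05% and 4.43% of all genes), and 2 fell and 2 rose (9.69% and 6.96%). At the 8093 nilotinib end 13 rose and 5 fell, with the protease gene Atg4c up by 1.65 and the LC3 relative Gabarap up by 1.49. Of 5 genes of enzyme sorting, 3 rose at each nilotinib end, among them Igf2r, the large mannose 6-phosphate receptor, by 1.24 in Bin-2 and 2.34 in 8093, from start means below the 4.68 level. The cathepsins, described here only where they cross, rose with nilotinib too: Ctsd by 2.03 at the Bin-2 end and 3.76 at the 8093 end, Ctsb by 1.90 and 2.06, and Ctsl by 2.72 and 2.28. At the Bin-2 lonafarnib end Ctsl was up by 2.18, and Ctsb and Ctsd were 0.62 (adjusted p = 0.121) and 0.50 (adjusted p = 0.269).

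Of 21 genes that control mTORC1 at the lysosome, 11 rose and 2 fell at the 8093 nilotinib end (19.6% and 24.9% of all genes), 2 rose and 1 fell at the Bin-2 nilotinib end (4.95% and 3.94%), 3 rose and 0 fell at the Bin-2 lonafarnib end (4.66% and 3.41%), and 1 rose and 2 fell at the 8093 lonafarnib end (4.4% and 4.31%). After Mitf, the largest rises at the 8093 nilotinib end were those of Fnip1 and Fnip2, whose products bind folliculin, at 2.30 and 1.98. Rragb, which encodes a Rag GTPase, rose with lonafarnib and was picked out after its values were seen. In Bin-2 with lonafarnib it was 3.79, 3.92 and 3.82 at the start, 3.78, 3.58 and 3.98 at the midpoint and 6.54, 6.68 and 6.70 at the end. In 8093 with lonafarnib it was 4.30, 3.98 and 4.13 at the start, 6.16, 5.54 and 5.99 at the midpoint and 5.61 and 5.69 at the end. In Bin-2 the end alone lay clear of the start, and in 8093 both later groups did. The end changes were 2.80 ± 0.14 (SE), adjusted p = 1.4e-14 and 1.51 ± 0.16 (SE), adjusted p = 1.54e-07, from start means below the 4.68 level, so they may understate the fold. With nilotinib the mean of Rragb was below that level in all Bin-2 groups and at the 8093 start and end. At the 8093 nilotinib midpoint Rragb rose by 0.78 (adjusted p = 4.57e-05), with 5.20, 4.86 and 4.77 against 4.27, 4.20 and 4.03 at the start. That rise was 0.52 (adjusted p = 0.0131) after quantile normalization and 0.41 (adjusted p = 0.0536) with equal interquartile ranges. Rragd, another Rag GTPase gene, rose at the Bin-2 lonafarnib end by 1.20, from a start mean below the level. In 8093 it fell, with a change of -1.81 ± 0.15 (SE), adjusted p = 3.49e-11 at the nilotinib end, where its mean was below the level, and of -1.18 at the lonafarnib end.

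**Figure D5:**
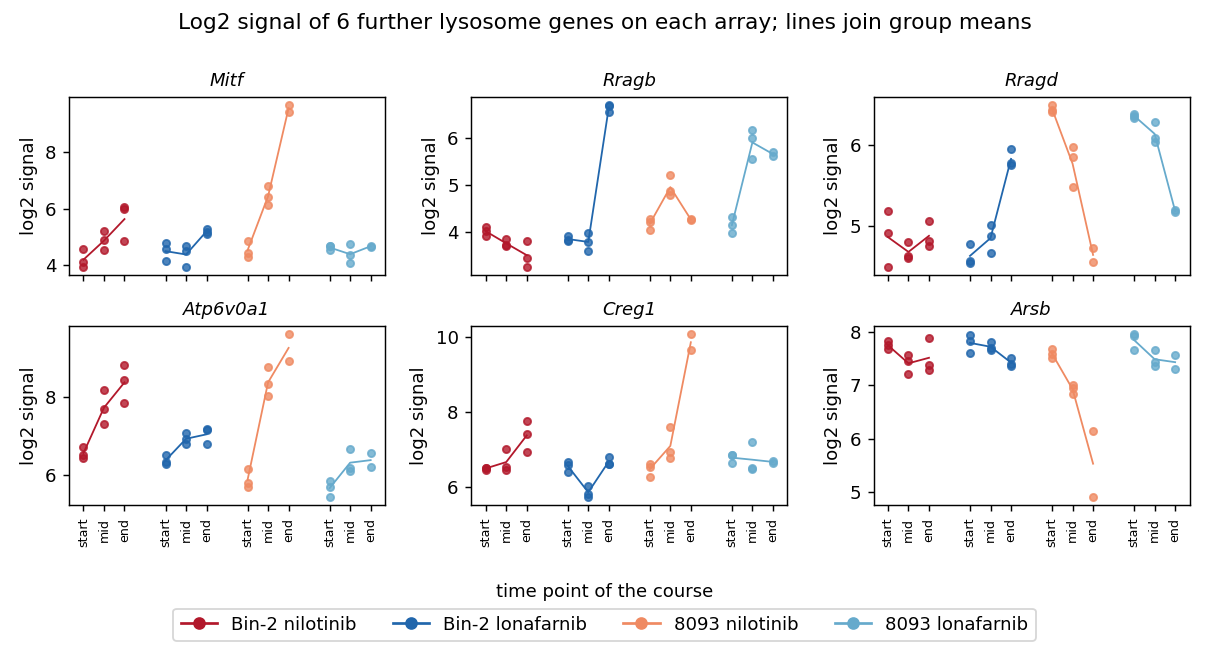
Points are log2 signals of single arrays and lines join group means, for 6 further lysosome genes at the start, midpoint (mid) and end of the 4 courses. Mitf climbs to 9.43 and 9.68 at the 8093 nilotinib end, and Rragb lies highest at the Bin-2 lonafarnib end and in 8093 with lonafarnib.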

How the data were processed

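RNA from 34 cultures was hybridised to Affymetrix Mouse Gene 1.0 ST arrays. The deposited table holds log2 values for 35557 probesets on 34 arrays, read as log2 from their range (1.02 to 14.4). The submitters' processing notes name Partek, and the normalization is not given in the sources used here. Of the probesets, 21789 carried 1 gene symbol in the platform annotation, 1621 several and 12147 were not listed. The probeset of highest mean stood for each of 19938 genes.

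A mean for each of 12 groups was fitted with limma 3.58.1 (R 4.3.3, eBayes) over all arrays, and p-values were adjusted by Benjamini-Hochberg over all 19938 genes for each of 21 comparisons. There were 12 comparisons over time, 1 between lines before drug, on 6 start arrays each, and 8 of differences between changes. The code was tested on simulated data. Replicates were separate plates of a line, so p-values measure the spread between cultures of 1 leukemia each. The number of arrays limits the precision.

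The 37 genes and the further lists were chosen with earlier results of these data known. All 37 genes are described, with per-array values for those of the largest changes in each role. None of the 37 had an overall mean below 4.68, the 95th percentile of 1015 olfactory receptor genes, and group means of Cd63, Atp6v0d2 and Wipi1 fell below it. Alternatives were quantile normalization, an equal median and interquartile range for all arrays, a trended robust prior, leaving out dim genes, averaging probesets, pooling a line's start arrays, fitting a line alone, replicate blocks, and leaving out each array. The effect of scaling on the further lists was computed after the data were seen.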

Additional observations from a re-analysis of the deposited data

Results flagged for a closer look

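The results singled out here are differences between the changes of 2 courses that passed a test of the difference itself. Shares in parentheses are those of all genes more positive and more negative. Nilotinib and lonafarnib differed in 8093 for 15 of the 37 genes at the midpoint (9.19% and 17.6%), with Cd63 at 3.02 and Hexa at 1.20 log2 units. At the end they differed for 21 (15.7% and 17.4%), with Cd63 at 5.99 and Hexa at 2.86. In Bin-2 the drugs differed for 1 gene at the midpoint (1.04% and 0.441%), Atp6ap1 at 0.59, a call lost under both scalings and in 11 of 12 fits without an array. With pooled starts 19 genes were called there, where 2511 of all 19938 genes were more positive and 874 more negative. The drugs differed for 2 at the Bin-2 end (4.65% and 4.86%), Cd63 at 3.59 and Lamp1 at 0.62. The change in Bin-2 differed from that in 8093 for 11 genes at the nilotinib midpoint (18% and 8.01%), in both directions, with Cd63 at -2.29 and Grn at -0.97. At the nilotinib end it differed for 18 (15.6% and 15%), also in both directions, with Cd63 at -2.30 and Tpp1 at -2.11. It differed for 2 genes at the lonafarnib end (2.12% and 2.49%), Hexa at 1.85 and Sqstm1 at 0.85.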

How the results depend on the processing

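Of 240 calls of the 37 genes over 21 comparisons, quantile normalization kept 195, equal interquartile ranges 185, the trended prior 238, leaving out dim genes 240, averaging probesets 240, and pooled start arrays 171 of 177. Fitting a line alone kept 165 of 196. The sign of 7 turned: Galns at the 8093 nilotinib midpoint was 0.027 after quantile normalization, and between midpoint and end of that course, with equal interquartile ranges, Lamp1 was -0.28, Npc1 -0.18, Asah1 -0.024, Atp6v1a -0.022, Atp6v1b2 -0.30 and Atp6ap1 -0.28. The cause was not tested. Calls between midpoint and end numbered 17 under either scaling (26 as deposited) for 8093 with nilotinib, and 13 with equal ranges (22) for Bin-2 with lonafarnib. For 8093 with lonafarnib, midpoint calls were 4 in the line alone (8), end calls 5 with equal ranges and 3 in the line alone (8), and end against midpoint 4 after quantile normalization, 2 with equal ranges, 3 with the trended prior, 6 without dim genes and 0 in the line alone (1). For Bin-2 with nilotinib, end against midpoint gave 0 with the trended prior or in the line alone (1). The Bin-2 lonafarnib midpoint gave 8 with equal ranges and 12 with pooled starts (5). Between drugs in Bin-2, the midpoint gave 0 under either scaling or in the line alone, 2 without dim genes and 19 with pooled starts (1), and the end 4 with equal ranges, 5 with the trended prior or without dim genes, 11 with pooled starts and 4 in the line alone (2). Between lines, the nilotinib midpoint gave 23 with equal ranges (11), and the lonafarnib midpoint 1 with the trended prior, 3 without dim genes and 6 with pooled starts (0). Calls over all genes moved with the settings too.

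Replicate numbers did not pair the samples: deviations of same-numbered samples correlated above 0.1 in 2 of 32 pairs by title number (-0.18 to 0.16, median -0.01) and in 4 of 32 by dish letter (median 0.02). With a replicate block by title number 197 calls held and by dish letter 213. These totals include the comparison between lines before drug. For it, both block fits compared fitted levels of the first replicate of each course, not group means. Its counts, 5 by title number and 7 by dish letter, therefore do not measure an effect of blocking. By title number the counts were 5 at the 8093 lonafarnib midpoint, 2 at its end, 5 at the Bin-2 nilotinib midpoint and 0 between its end and midpoint. Between drugs they were 9 at the 8093 midpoint and 0 at the Bin-2 midpoint. By dish letter the block gave 5 at the 8093 lonafarnib end, 0 between the Bin-2 nilotinib end and midpoint and 0 between drugs at the Bin-2 midpoint.

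Leaving out each array in turn kept 1543 of 1814 calls and turned none. Counts ranged from 21 to 25 at the 8093 nilotinib midpoint, 24 to 26 at its end and 21 to 26 between them, and for 8093 with lonafarnib from 3 to 6, 0 to 4 and 0 to 1. For Bin-2 with nilotinib they ranged from 4 to 9, 9 to 20 and 0 to 4, and with lonafarnib from 4 to 5, 6 to 9 and 17 to 21. Between lines before drug the range was 11 to 15. Between drugs it was 9 to 15 and 17 to 25 in 8093, and 0 to 1 and 1 to 6 in Bin-2. Between lines it was 9 to 14 and 16 to 21 with nilotinib, and 0 to 2 and 1 to 3 with lonafarnib.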
